A study of Mus musculus with 18 samples.

Results

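The mitochondrial genome of the mouse holds 37 genes, and all 37 were found in the deposited table of 46983 genes as the rows whose symbol begins with mt-. They comprise 13 genes for proteins of the respiratory chain, 2 genes for the ribosomal RNAs of the mitochondrial ribosome and 22 genes for transfer RNAs. Their RNA was measured in 18 RNA sequencing libraries of CD8 T cells, which the labels divide into a memory phenotype, high in surface CD44, and naive cells, low in it. The 5 Dock2-deficient memory and 5 Dock2-deficient naive libraries carried the Hsd allele of Dock2 on both chromosomes, and the 4 wild-type memory and 4 wild-type naive libraries were wild type at Dock2. Dock2 switches on the small GTPase Rac in leukocytes. The labels named C57BL/6J as the strain of all mice, but the description field gave the name C57L6NHsd to Dock2-deficient libraries, so substrain and genotype cannot be told apart. The labels gave neither tissue, age nor sex, and did not state whether each replicate is its own animal. The p-values therefore refer to the spread between libraries, which may be technical.

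Mitochondrial DNA is transcribed from both strands into long precursors that run around the whole circle, and most of the mRNAs and rRNAs are released where the tRNAs that lie between them are cut out. Most of the mRNAs and the rRNAs then receive A tails, which are short on rRNAs. The products are core subunits of respiratory complexes I, III and IV and of ATP synthase, and the RNAs needed to translate them. In T cells the respiratory chain is known for its part in the long life of memory cells and in their recall. Parts of the mitochondrial genome have also been copied into the chromosomes during evolution, and reads of a gene and of an identical nuclear copy cannot be told apart.

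Stretches of those copies are shown first, since the values of 7 members depend on them. A block on the minus strand of chr1:24611535-24616197 (mm10) holds 7 annotated pseudogenes that matched mitochondrial genes over nearly their whole length with at least 99.7% identity. They are Gm29216 (a copy of part of mt-Co1), Gm28661 (mt-Co2), Gm10925 (mt-Atp6), Gm28437 (mt-Co3), Gm28438 (mt-Nd3), Gm10222 (mt-Nd4l) and Gm28439 (part of mt-Nd4). The first 60 bases of mt-Co2 (chrM:7013-7696, plus strand) are set beside the same stretch of its chromosome 1 copy Gm28661 (chr1:24614885-24615565, minus strand) and of the older chromosome 2 copy Gm13341 (chr2:22587291-22587962, minus strand), with bases that differ from mt-Co2 in capitals. All sequences were read from GENCODE M21 transcripts (GRCm38, the assembly of mm10).
mt-Co2: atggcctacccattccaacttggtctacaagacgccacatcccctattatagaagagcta
Gm28661: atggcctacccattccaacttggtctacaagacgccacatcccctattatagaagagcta
Gm13341: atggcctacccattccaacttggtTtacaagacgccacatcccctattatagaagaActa
Gm28661 did not differ from mt-Co2 anywhere in its 681 bases. Gm13341 carried C25T and G57A in this window, positions counted from 1 at the first base of mt-Co2.

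Bases 1121 to 1180 of mt-Co1 (chrM:5328-6872, plus strand) show the same pattern beside Gm29216 (chr1:24615706-24616197, minus strand) and Gm13340 (chr2:22588103-22589647, minus strand), again with differences in capitals.
mt-Co1: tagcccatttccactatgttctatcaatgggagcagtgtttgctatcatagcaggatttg
Gm29216: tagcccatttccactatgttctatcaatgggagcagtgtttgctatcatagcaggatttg
Gm13340: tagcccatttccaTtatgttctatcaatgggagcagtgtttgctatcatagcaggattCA
Gm13340 carried C1134T, T1179C and G1180A in this stretch and 37 differences over its 1545 bases, counted from the first base of mt-Co1. Gm29216 carried 1 over the 483 of its 492 bases that aligned, A1066T, outside the stretch shown. The nuclear copies also differed in their values, in the chromosome 1 block even between copies without a difference in sequence, such as Gm28439 and Gm10925. The 7 rows of the chromosome 1 block averaged between 268 (Gm28439) and 6177 (Gm10925) normalized expected counts, whereas Gm13340 averaged 18.1, Gm13341 0.619, Gm13339 0.252 and Gm4076 0.110.

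The libraries held between 2215987 and 8257768 expected reads, and the ribosomal RNA gene Rn18s-rs5 took 37.0% to 69.4% of them. The memory markers Cd44, Il2rb, Eomes and Ccl5 summed to 4486 to 8366 in Dock2-deficient memory and 315 to 859 in Dock2-deficient naive libraries, and to 5079 to 6317 in wild-type memory and 277 to 442 in wild-type naive libraries. All 5 CD8 T cell markers were found, with sums of 5499 to 11916, beside 0 to 27.95 for CD4 T cells, 323 to 1075 for B cells and 47.0 to 112 for myeloid cells. Erythroid markers summed to 0 to 21.7 in Dock2-deficient memory and 0 to 165 in Dock2-deficient naive libraries, against 0 to 2.58 in wild-type memory and 0 to 3.65 in wild-type naive libraries, and their part in the genotype differences was not tested. Dock2 itself had 61.0 to 280 in Dock2-deficient memory and 171 to 373 in Dock2-deficient naive libraries, against 400 to 844 in wild-type memory and 288 to 514 in wild-type naive libraries. The labels did not give the position of the change in the allele, so the total of the gene checks them only in part. Xist was at 1820 to 3887 in all wild-type libraries, but among the Dock2-deficient ones it exceeded 5.44 in memory library 1 (2593) and naive library 1 (2217) alone. Xist and genotype were thus partly confounded, and the part of the sex of the mice in the genotype differences was not tested. Libraries 4 and 5 of both Dock2-deficient groups stood apart from the rest: the stress genes Fos, Jun, Hspa1a and Hspa1b summed to 77.5 and 201 in memory and 94.6 and 240.0 in naive cells, against 1368 to 7506 in the other 14 libraries.

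Levels per length differed widely among genes of the same circle. With the chromosome 1 copies summed to their genes, mt-Rnr2, the large ribosomal RNA, averaged 99232 normalized expected counts per kb over the 18 libraries. The highest mRNA was mt-Atp6, a subunit of ATP synthase, with 15658 per kb, and the lowest library of mt-Rnr2 (53224 per kb) lay above the highest of mt-Atp6 (39307 per kb). Below them came mt-Co1 with 9396, mt-Nd1 with 8497, mt-Cytb with 5377, mt-Co2 with 5344, mt-Co3 with 4791 and mt-Nd5 with 4611 per kb. The lower part of the order held mt-Nd4 with 2434, mt-Nd4l with 2151, mt-Atp8 with 1711, mt-Nd2 with 1315, mt-Rnr1 with 1220 and mt-Nd3 with 1162 per kb. At the bottom was mt-Nd6 with 428 per kb. Every other pair of neighbours in this order had overlapping ranges. These levels divide by the whole length of a gene and are least certain for the shortest genes, mt-Atp8, mt-Nd4l and mt-Nd3.

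**Figure D1:**
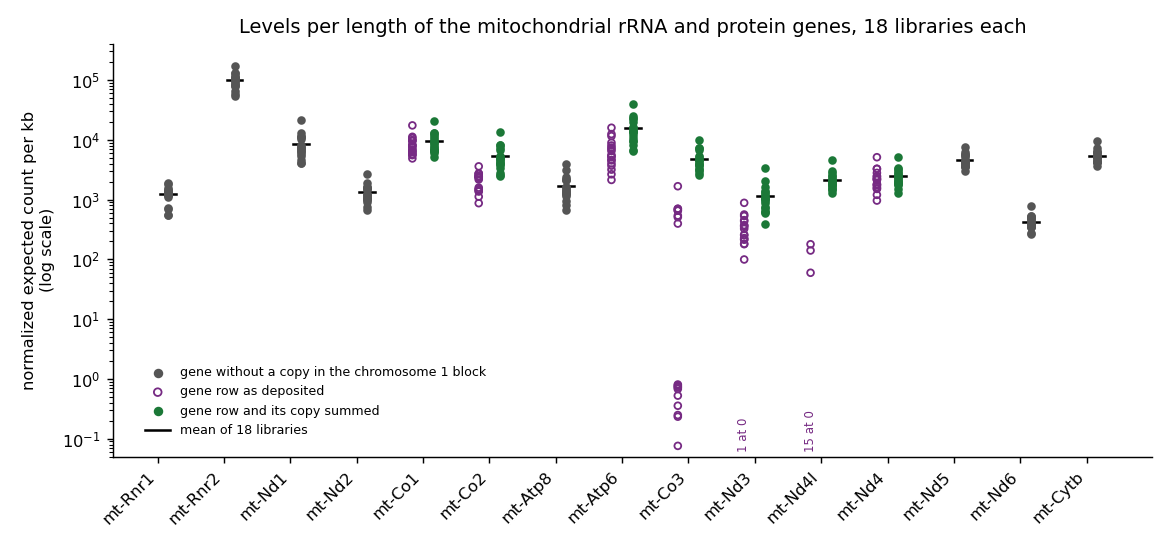
Normalized expected count per kb of gene (log axis) for the 15 rRNA and protein genes in genome order, with 1 point per library and a line at the mean. Open points are the deposited row of genes with a chromosome 1 copy and filled green points the row and its copy summed: the deposited mt-Co3 values fall into a high and a low cluster, which meet once the copy is added, and mt-Nd4l was at 0 in 15 libraries.

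The deposited rows of the 7 copied genes depended on how the estimated reads were shared out between gene and copy. The row of mt-Co3, a core subunit of cytochrome c oxidase (complex IV), had 0.195, 0.580, 0.412, 0.0596 and 514 in Dock2-deficient memory, 517, 0.183, 0.609, 399 and 550.2 in Dock2-deficient naive, 423, 311.4, 1311 and 0.533 in wild-type memory, and 0.567, 0.633, 0.279 and 548 in wild-type naive libraries. Every group held both values under 1 and values of 311.4 or more. Its copy Gm28437, identical over 783 bases, had 2011 to 7847 in all 18 libraries and took on average 93.1% of the sum. On the row as deposited, the log2 fold change of mt-Co3 was -3.44 ± 2.25 (SE) for memory against naive in Dock2-deficient cells, 4.29 ± 2.52 for memory against naive in wild type and -4.90 ± 2.39 for Dock2-deficient against wild-type memory cells, with adjusted p-values of 0.549, 0.550 and 0.311 from limma. With the copy added, the same changes were 0.67 ± 0.31, -0.13 ± 0.35 and 0.46 ± 0.33 (adjusted p = 0.352, 0.937 and 0.474), so each turned its sign.

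The other copied genes shared their reads in other ways. The row of mt-Nd4l, a small membrane subunit of complex I (NADH dehydrogenase), was at 0 in 15 libraries and had 17.7, 41.8 and 53.2 in wild-type memory libraries 1, 2 and 4, while its copy Gm10222 had 378 to 1347 in all. For this reason mt-Nd4l did not pass the filter on low values, which asked for 10 or more in 4 or more libraries. Gm28661 took between 1.39% and 79.6% of the reads it shared with mt-Co2, with the lowest share in Dock2-deficient memory library 4, where mt-Co2 had 1670 and the copy 23.5. On average Gm28438 took 68.2% of the reads shared with mt-Nd3, Gm10925 58.6% of those shared with mt-Atp6, Gm29216 11.7% of those shared with mt-Co1 and Gm28439 9.63% of those shared with mt-Nd4. The last 2 copies cover only part of their gene. Over all protein genes, the copies of the block held 16.9% to 29.1% of the summed values of a library. A sum of gene and copy cannot say how many of its reads came from the nucleus, and this was not tested.

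**Figure D2:**
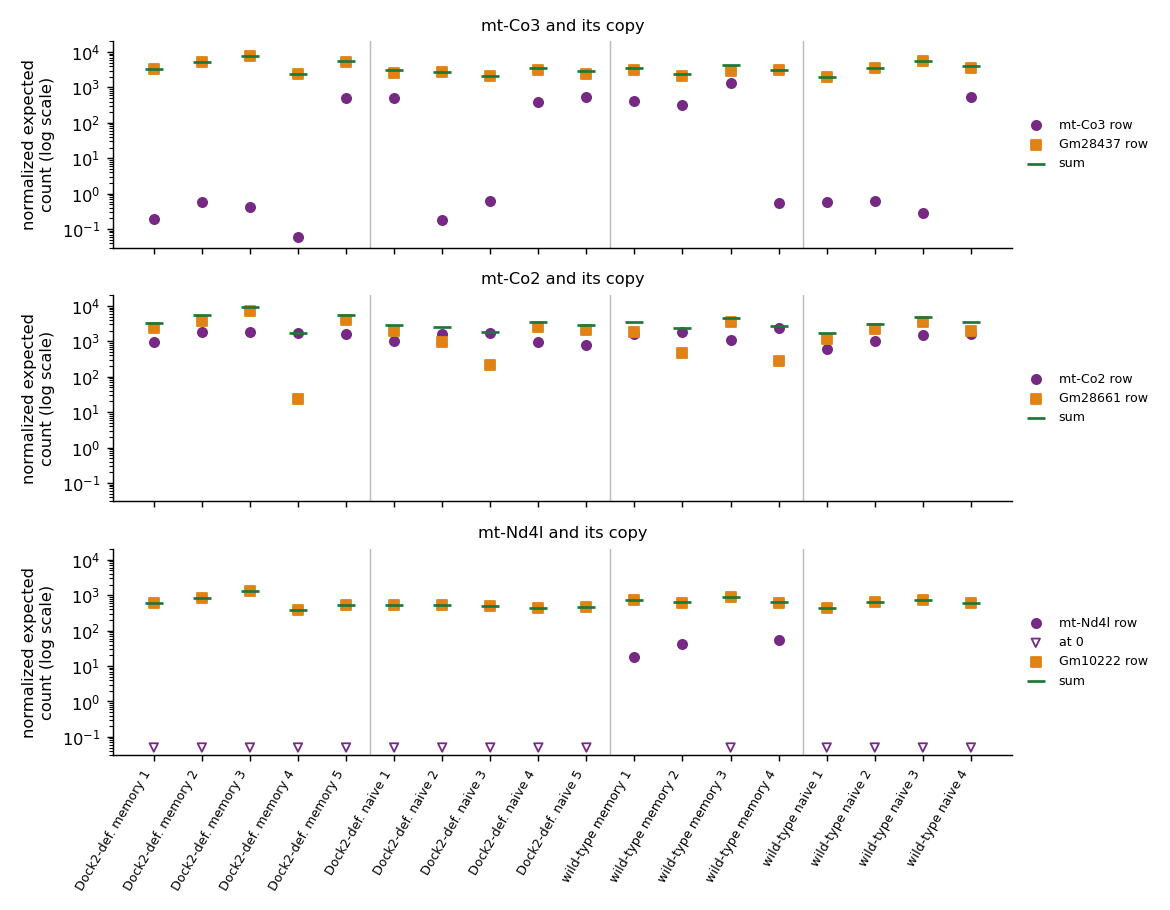
Normalized expected counts (log axis) of mt-Co3, mt-Co2 and mt-Nd4l, of their chromosome 1 copies Gm28437, Gm28661 and Gm10222, and of the sums, for each of the 18 libraries; triangles at the lower edge mark rows at 0. The sums vary far less than the rows of mt-Co3 (0.0596 to 1311), and Gm28661 fell to 23.5 in Dock2-deficient memory library 4.

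No mitochondrial gene differed between memory and naive cells or between genotypes at an adjusted p under 0.05. The test was limma on log2(value + 1), adjusted over all 9437 genes kept by the filter, and it included 14 members: 12 protein genes and both rRNA genes, but none of the tRNA genes. For memory against naive in wild type, 0 of 14 members were called, beside 238 of all genes (2.52%), and 1 member had an unadjusted p under 0.05, beside 12.1% of all genes. For memory against naive in Dock2-deficient cells, 0 of 14 were called, beside 266 of all genes (2.82%), and 3 had an unadjusted p under 0.05, beside 13.4%. For Dock2-deficient against wild type, 0 of 14 were called in naive cells, where 13 of all genes were (0.138%), and 0 of 14 in memory cells, where 5 were (0.053%). In these genotype comparisons 0 members had an unadjusted p under 0.05, beside 16.4% of all genes in memory and 6.1% in naive cells. The interaction, that is, the difference between genotypes in the change with memory state, called 0 of 14 members, beside 3 of all genes (0.0318%), and 1 had an unadjusted p under 0.05, beside 5.21%. The values of 1 member, mt-Nd5 in wild type, did not overlap between memory and naive libraries, where 8.27% of all genes did not. In the other comparisons of groups 0 members were without overlap, beside 3.93% for memory against naive in Dock2-deficient cells and 2.71% and 4.44% for Dock2-deficient against wild type in naive and memory cells. A fit with copies summed, added after the split of reads had been seen, held 15 members among 9431 genes and also called 0 in each of the 5 comparisons, with 1, 2, 0, 1 and 0 members at an unadjusted p under 0.05. The fold changes below come from that fit unless the deposited row is named.

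The sizes of the differences are given for the members as a group. Most members vary together between libraries, so the counts of signs below are no separate pieces of evidence. With copies summed, the median log2 fold change of the 15 genes was 0.57 for memory against naive in Dock2-deficient cells and 0.02 in wild-type cells, beside medians of -0.01 and -0.02 over all genes. Of the 15, 14 were positive in Dock2-deficient and 9 in wild-type cells. On the rows as deposited, the planned fit, the medians over 14 genes lay closer together, at 0.42 in Dock2-deficient cells with 12 positive and 0.15 in wild-type cells with 8 positive. For Dock2-deficient against wild type, the median was 0.13 in memory cells, with 11 of 15 positive, and -0.26 in naive cells, with 13 of 15 negative. These comparisons share libraries in pairs, so the values are given side by side and are no check of each other. In bulk samples more RNA per cell and more cells that carry it cannot be told apart. The direct test of the difference, the interaction, had a median of 0.35 over the 15 genes, with adjusted p-values from 0.821 to 0.994, and 0.27 over the 14 genes as deposited.

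Single libraries moved these medians, all given here with copies summed. For memory against naive in wild type the median ran from -0.23 without wild-type naive library 1 to 0.20 without wild-type naive library 3, and it was also below 0 without wild-type memory library 1 or 3. For Dock2-deficient against wild-type memory cells it was -0.10, with 7 of 15 positive, without Dock2-deficient memory library 3 and 0.45 without Dock2-deficient memory library 4. Between the genotypes of naive cells it ran from -0.41 without wild-type naive library 1 to -0.10 without wild-type naive library 3. The median of the interaction was 0.15, with 9 of 15 positive, without Dock2-deficient memory library 3 and 0.20 without wild-type naive library 3. It was 0.61 without Dock2-deficient memory library 4, 0.59 without wild-type naive library 1 and 0.73 without the Dock2-deficient libraries 4 and 5. The medians for wild type and for memory cells of both genotypes thus had no stable sign.

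The scale between libraries mattered for these signs. Scaled to the sum of the nuclear genes without Rn18s-rs5, the median of all genes moved to -0.31 for memory against naive in Dock2-deficient cells, to -0.27 for Dock2-deficient against wild type in memory cells and to -0.26 for the interaction. On that scale the median of the 15 members was 0.26, -0.17 and 0.07 in these comparisons, so the members had a higher median than all genes, but for Dock2-deficient against wild type in memory cells 6 of 15 were above 0. For memory against naive in wild type 6 of 15 were above 0 as well, with a median of -0.02. Scaled to all expected reads, the median of all genes was -0.12 for memory against naive in Dock2-deficient cells and -0.13 in wild type. The median of the 15 members was then 0.46, with 14 above 0, in Dock2-deficient cells and -0.09, with 6 above 0, in wild type. For Dock2-deficient against wild type it was 0.05 in memory cells, with 10 above 0, and -0.34 in naive cells, with 2 above 0. The interaction had a median of 0.34, with 14 above 0.

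**Figure D3:**
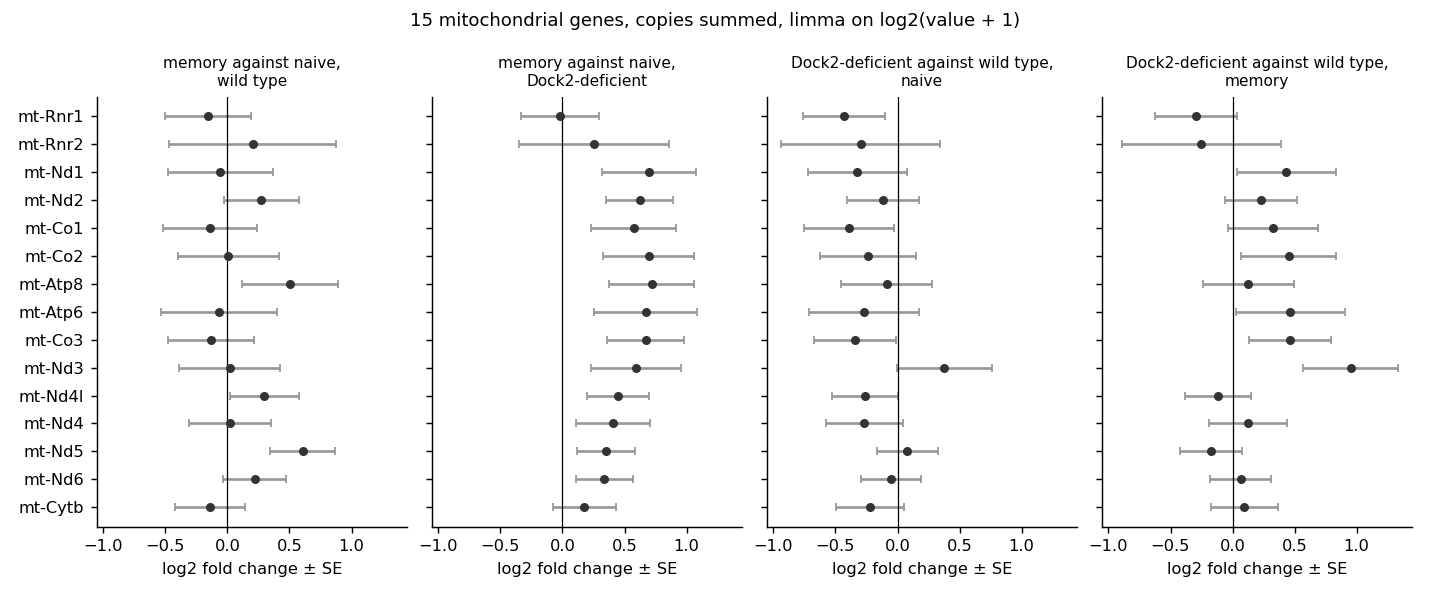
Log2 fold changes with their standard errors for the 15 rRNA and protein genes in genome order, with copies summed, in memory against naive cells of each genotype and in Dock2-deficient against wild-type cells of each state. In Dock2-deficient cells 14 of 15 points lie to the right of 0 for memory against naive, and 0 of 15 passed the test in any panel.

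The ribosomal RNAs were unequal in level and in how they varied. mt-Rnr2, the RNA of the large subunit of the mitochondrial ribosome (chrM:1094-2675, plus strand), made up on average 76.4% of all mitochondrial reads. That share counts the rows as deposited, without the nuclear copies. mt-Rnr1, the RNA of the small subunit (chrM:70-1024, plus strand), comes from the same precursor, yet per length mt-Rnr2 was 59.9 to 109 times as high. cDNA synthesis in Smart-seq2 is primed with a run of T that pairs with runs of A, so the longest run of A in each rRNA is shown in capitals with the bases around it.
mt-Rnr2: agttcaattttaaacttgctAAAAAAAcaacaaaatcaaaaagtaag
mt-Rnr1: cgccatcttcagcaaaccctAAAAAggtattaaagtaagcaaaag
The run has 7 bases in mt-Rnr2, from base 395 of the gene, and 5 bases in mt-Rnr1, from base 636. Over the protein genes the longest run had 3 (mt-Nd6) to 8 bases (mt-Nd2), so runs as long as that of mt-Rnr2 were also present in genes of lower level. The runs describe the sequences, and use of them in these libraries was not tested.

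mt-Rnr1 had 1046, 1319, 1775, 697 and 521 in Dock2-deficient memory, 1370.2, 1507, 1295, 532 and 666 in Dock2-deficient naive, 1149.8, 1228, 1272 and 1154 in wild-type memory, and 1133, 1768, 1365 and 1166 in wild-type naive libraries. The 4 lowest values of the series were those of libraries 4 and 5 of both Dock2-deficient groups, the libraries with the lowest stress genes. The log2 fold change of mt-Rnr1 for Dock2-deficient against wild type was -0.30 ± 0.33 in memory and -0.43 ± 0.33 in naive cells, neither past the test (limma, adjusted p = 0.662 and 0.956). Without those 4 libraries the changes were 0.17 ± 0.20 in memory and 0.05 ± 0.20 in naive cells (adjusted p = 0.744 and 0.988), so both turned their sign. The part of these libraries' lower stress genes in the result was not tested.

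mt-Rnr2 averaged 162120 ± 70235 in Dock2-deficient memory (SD, n = 5), 131122 ± 35029 in Dock2-deficient naive (n = 5), 180402 ± 18526 in wild-type memory (n = 4) and 159478 ± 38513 in wild-type naive libraries (n = 4). All 4 groups overlapped, and the log2 fold change for memory against naive was 0.25 ± 0.60 in Dock2-deficient and 0.20 ± 0.68 in wild-type cells (adjusted p = 0.904 and 0.953). Within groups the SD of log2 values was 0.427 for mt-Rnr2, lower than the 0.543 of mt-Rnr1. The SE of limma also draws on the variance trend over all genes. The larger SE of mt-Rnr2 is thus not a measure of its own spread alone.

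The ratio of mt-Rnr2 to mt-Rnr1 does not depend on the scale between libraries. Per length it was 91.3, 79.6, 97.6 and 94.2 in wild-type memory libraries, against 66.1, 71.7, 74.4 and 70.1 in wild-type naive libraries, and these groups did not overlap. In Dock2-deficient cells it was 77.5, 85.9, 92.3, 109 and 106 in memory libraries, against 73.5, 59.9, 70.3, 95.6 and 94.6 in naive libraries. There the groups overlapped, and the 4 libraries with the lowest stress genes, 4 and 5 of both states, had the 4 highest ratios of their genotype. The nuclear RNAs Malat1 and Neat1 also followed the state in wild type, with a summed level of 5702 to 7274 in wild-type memory and 9821 to 12597 in wild-type naive libraries. In Dock2-deficient cells the sum overlapped between states, with 1141 to 6854 in memory and 2680 to 6594 in naive libraries, and naive cells of the genotypes did not overlap. Their part in the ratio and in the genotype differences of the members was not tested, and no p is given for a ratio of 2 members looked at after the values were known.

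**Figure D4:**
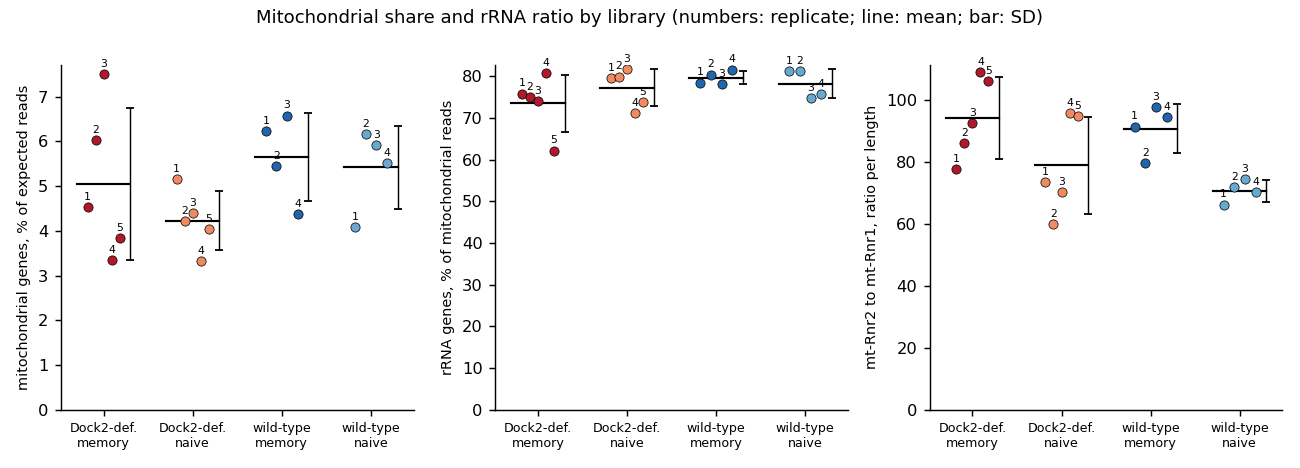
Mitochondrial genes as a percent of all expected reads, the rRNA genes as a percent of the mitochondrial reads, and the ratio of mt-Rnr2 to mt-Rnr1 per length, with 1 numbered point per library, a line at the mean and a bar for the SD (n = 5 Dock2-deficient, n = 4 wild type). The wild-type memory ratios (79.6 to 97.6) lie above all wild-type naive ones (66.1 to 74.4). The shares count the rows as deposited and overlap between all groups.

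Complex I takes electrons from NADH, and 7 of its core subunits are mitochondrially encoded. mt-Nd5, a proton-pumping subunit (chrM:11742-13565, plus strand), had 9475, 10087, 11401 and 10248 in wild-type memory, against 6558, 7502, 6396 and 6626 in wild-type naive libraries. The groups did not overlap, and the log2 fold change was 0.61 ± 0.26 (adjusted p = 0.337). Leaving out each of the 8 wild-type libraries in turn gave log2 fold changes from 0.56 to 0.66, with adjusted p-values from 0.366 to 0.557. In Dock2-deficient cells mt-Nd5 had 7956, 10379, 13675, 8415 and 6657 in memory libraries, against 7763, 7840.1, 7131, 5493 and 7775 in naive libraries. Here the groups overlapped, with a log2 fold change of 0.35 ± 0.23 (adjusted p = 0.549), and the interaction was -0.25 ± 0.35 (adjusted p = 0.902). Summed NK cell markers (Ncr1, Tyrobp and Klrb1f) were at 6.45 to 12.4 in wild-type memory libraries and at 0 in wild-type naive libraries, and their part in the result was not tested.

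mt-Nd2, another membrane subunit, had 1566, 1954, 2820.3, 786 and 1696 in Dock2-deficient memory, against 1173, 1073, 952, 1036 and 1073 in Dock2-deficient naive libraries. In memory cells 4 libraries lay above all naive ones and library 4 below them. The log2 fold change was 0.62 ± 0.27 (adjusted p = 0.317). Without Dock2-deficient memory library 4, the lowest of its group, it was 0.88 ± 0.23 and passed the test (adjusted p = 0.0359). Over the 10 fits that left out 1 library each, it ran from 0.42 to 0.88 and passed in 1. Without all libraries 4 and 5 it was 0.95 ± 0.29 and did not pass (adjusted p = 0.0915). In wild type the log2 fold change of mt-Nd2 for memory against naive was 0.27 ± 0.30 (adjusted p = 0.82). Its interaction was 0.35 ± 0.41 (adjusted p = 0.873).

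mt-Nd3 and its copy summed to 467, 438, 713, 262 and 1172 in Dock2-deficient memory, against 353, 227, 356 and 207 in wild-type memory libraries. The groups overlapped through library 4. The log2 fold change for Dock2-deficient against wild-type memory cells was 0.95 ± 0.38, the largest of the 15 genes in that comparison (adjusted p = 0.266), and it was 0.92 ± 0.33 without libraries 4 and 5. Between the genotypes of naive cells it was 0.38 ± 0.38 (adjusted p = 0.977) and, without those libraries, 0.00 ± 0.33. On the row as deposited, which was at 0 in Dock2-deficient naive library 1, mt-Nd3 had the opposite sign there, -1.84 ± 0.92 (adjusted p = 0.841), and for memory against naive in Dock2-deficient cells it had 2.30 ± 0.87 (adjusted p = 0.219), against 0.59 ± 0.36 with the copy. The remaining subunits on the plus strand, mt-Nd1, mt-Nd4 and mt-Nd4l, had log2 fold changes of 0.70 ± 0.38, 0.41 ± 0.30 and 0.44 ± 0.25 for memory against naive in Dock2-deficient cells, and their adjusted p-values were 0.444, 0.595 and 0.465.

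mt-Nd6 is the only protein gene on the minus strand (chrM:13552-14070) and shares 14 bases with the end of mt-Nd5 on the other strand. The libraries do not mark strand, so reads from either strand of the locus count alike. It averaged 257 ± 94.4 in Dock2-deficient memory, 192 ± 13.9 in Dock2-deficient naive, 234 ± 38.8 in wild-type memory and 205 ± 57.5 in wild-type naive libraries (SD, n = 5, 5, 4 and 4). Per length it stood at 6.63% to 10.6% of the mean of the 12 protein genes on the plus strand in every library. Its log2 fold changes lay between -0.05 and 0.34, with adjusted p-values of at least 0.566.

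Complexes III and IV pass electrons on to cytochrome c and to oxygen. mt-Cytb, the cytochrome b of complex III, averaged 6606 ± 2605 in Dock2-deficient memory, 5576 ± 840.2 in Dock2-deficient naive, 5896 ± 862 in wild-type memory and 6559 ± 1381 in wild-type naive libraries (SD, n = 5, 5, 4 and 4). Its groups overlapped, and its log2 fold changes lay between -0.22 and 0.17 in the 4 comparisons of groups. mt-Co1, the catalytic subunit of complex IV, summed with its copy to 12670.3, 19872, 32193, 8091 and 18605 in Dock2-deficient memory libraries, against 13881, 11368, 10385, 10123 and 10094 in Dock2-deficient naive libraries. Memory library 4 lay below all naive libraries and memory library 1 among them, and the log2 fold change was 0.57 ± 0.34 (adjusted p = 0.506). In wild type mt-Co1 and copy averaged 13396 ± 2970 in memory and 15110 ± 4672 in naive libraries (SD, n = 4 each), with a log2 fold change of -0.14 ± 0.38 (adjusted p = 0.941). mt-Co2, a further core subunit, had with its copy log2 fold changes for memory against naive of 0.69 ± 0.36 in Dock2-deficient and 0.01 ± 0.41 in wild-type cells (adjusted p = 0.427 and 0.998). On the row as deposited the order was reversed, with 0.40 ± 0.30 in Dock2-deficient and 0.62 ± 0.34 in wild-type cells (adjusted p = 0.614 and 0.496).

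ATP synthase uses the proton gradient, and both of its mitochondrial genes are read from mRNA that they share, mt-Atp8 and mt-Atp6 overlapping by 43 bases. mt-Atp6 and its copy summed to 9316, 17058, 26768, 4338 and 16011 in Dock2-deficient memory, against 9121, 7242, 5614, 9499 and 8232 in Dock2-deficient naive libraries. The 3 memory libraries 2, 3 and 5 exceeded all naive libraries, library 1 lay among them and library 4 below them. The log2 fold change was 0.67 ± 0.42 (adjusted p = 0.521). On the row as deposited it was 0.97 ± 0.42 (adjusted p = 0.310), and 1.39 without memory library 4, where it passed the test (adjusted p = 0.0267). With the copy summed, the change without memory library 4 was 1.05 ± 0.36 and did not pass (adjusted p = 0.121). In wild type mt-Atp6 and copy had -0.07 ± 0.47 for memory against naive (adjusted p = 0.979). The interaction was 0.74 ± 0.62 (adjusted p = 0.823). mt-Atp8 had 469 ± 252 in Dock2-deficient memory and 252 ± 48.2 in Dock2-deficient naive libraries (SD, n = 5 each), with a log2 fold change of 0.72 ± 0.35 (adjusted p = 0.377), and 383 ± 94.9 in wild-type memory and 286 ± 123.1 in wild-type naive libraries (SD, n = 4 each), with 0.50 ± 0.39 (adjusted p = 0.692).

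**Figure D5:**
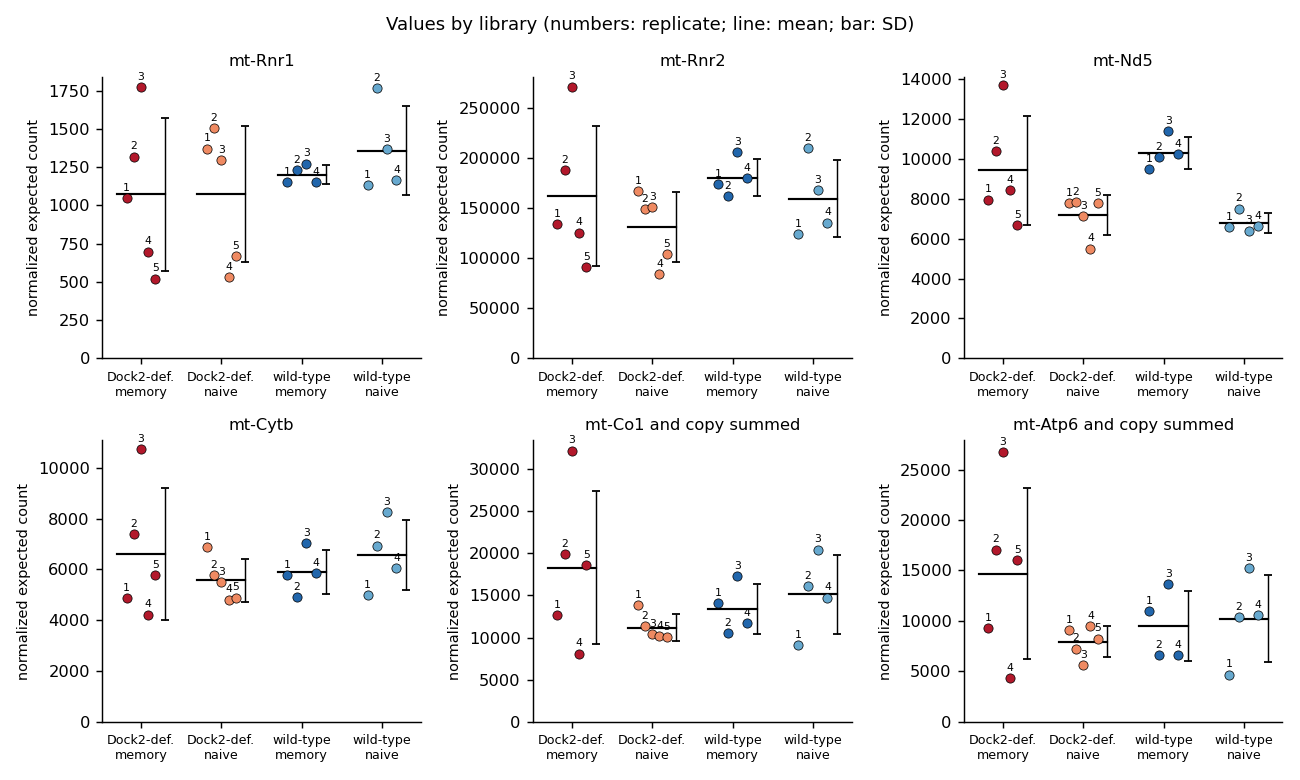
Normalized expected counts of mt-Rnr1, mt-Rnr2, mt-Nd5 and mt-Cytb, and of mt-Co1 and mt-Atp6 summed with their copies, with 1 numbered point per library, a line at the mean and a bar for the SD (n = 5 Dock2-deficient, n = 4 wild type). mt-Nd5 in wild-type memory libraries (9475 to 11401) lies above all wild-type naive ones, and Dock2-deficient memory library 3 is the highest point of all 6 panels.

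Most protein genes varied together between libraries of a group. With copies summed, the SD of log2 values within groups had a median of 0.492 over the 15 rRNA and protein genes, beside 0.558 over all genes tested. After division by the sum of the protein genes it had a median of 0.198, in part because each protein gene is part of that sum. The highest SDs after division were those of mt-Rnr1 (0.548), mt-Nd3 (0.468), mt-Rnr2 (0.421) and mt-Nd5 (0.407), and for mt-Nd5 the SD before division was lower (0.253). Dock2-deficient memory library 3 held the highest value of 14 of the 15 genes, and Dock2-deficient memory library 4 the lowest of 8. The sum of the protein genes and copies was 54889, 85624, 134166, 36608 and 78011 in Dock2-deficient memory, against 56292, 48203, 41692, 48388 and 48252 in Dock2-deficient naive libraries, so memory libraries lay on both sides of the naive ones. Library 3 also had the highest stress gene sum of the series (7506) and library 4 the lowest (77.5), with Rn18s-rs5 at 48.6% and 69.0% of their reads. Their part in the differences of the members was not tested. Without library 3, 13 of 15 members were still positive for memory against naive in Dock2-deficient cells, with a median of 0.33, and without library 4 all 15, with a median of 0.83.

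All mitochondrial genes together took 5.05% ± 1.70 of the expected reads in Dock2-deficient memory, 4.23% ± 0.66 in Dock2-deficient naive (SD, n = 5 each), 5.65% ± 0.98 in wild-type memory and 5.42% ± 0.93 in wild-type naive libraries (SD, n = 4 each). Single libraries ran from 3.33% to 7.50%, and all groups overlapped. These shares count the rows as deposited, and with the nuclear copies added single libraries ran from 3.49% to 8.28%. On the rows as deposited, 62.2% to 81.7% of the mitochondrial reads were rRNA, with the lowest share in Dock2-deficient memory library 5. With the chromosome 1 copies added to the protein genes, the rRNA sum was 1.18 (that library) to 3.65 times the protein sum.

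The tRNA genes, which carry amino acids to the mitochondrial ribosome and mark the cutting points of the precursor, were nearly empty. They are 59 to 75 bases long and cDNA synthesis was primed on runs of A. The values therefore cannot show how much tRNA the cells held. Of the 22 genes, 16 were at 0 in all 18 libraries, 6 were above 0 in at least 1 library and 0 passed the filter. A count of 0 allows up to 3 reads, which are 1.54 to 5.42 normalized counts depending on the library. Over all libraries mt-Te had 9 expected reads, mt-Tq and mt-Tc 3 each, mt-Ty 2 and mt-Tt 1. mt-Ts1, a tRNA for serine, was the exception with 98 expected reads and values above 0 in all 18 libraries. It had 5.33, 12.3, 13.7, 5.11 and 3.54 in Dock2-deficient memory, 3.64, 2.72, 0.512, 5.61 and 2.99 in Dock2-deficient naive, 6.63, 4.41, 3.87 and 11.4 in wild-type memory, and 1.10, 5.42, 9.78 and 5.65 in wild-type naive libraries. The groups overlapped, and the 18 values rest on those 98 reads. Of the 6 tRNA genes with reads, 5 lie on the minus strand, where 8 of the 22 are encoded, and 13 of the 14 on the plus strand were at 0 throughout. Since strand is not marked, reads on a minus-strand tRNA gene can come from RNA of the plus strand that runs across it. The sequence of mt-Ts1 (chrM:6870-6938, minus strand) is shown because it is the only tRNA with reads in every library, with the bases that lie opposite the end of mt-Co1 in capitals.
mt-Ts1: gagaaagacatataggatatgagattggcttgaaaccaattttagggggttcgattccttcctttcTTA
The overlap with mt-Co1, whose row is the highest of the protein genes, is 3 bases long. How many of the mt-Ts1 reads come from mt-Co1 mRNA was not tested.

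Nuclear genes that act on the mitochondrial genome were set beside the members. Lists for replication, transcription, RNA processing, RNA stability, tRNA synthetases, translation factors, mitochondrial ribosomal proteins, respiratory chain subunits and biogenesis regulators together held 255 genes found in the table, of which 247 were tested. In each of the 5 comparisons 0 of the 247 were called. The largest median was that of the nuclear-encoded respiratory chain subunits for Dock2-deficient against wild-type memory cells, 0.47 over 71 genes beside 0.01 over all genes, with 22 of the 71 at an unadjusted p under 0.05, beside 16.4% of all genes. The 77 mitochondrial ribosomal proteins had a median of 0.28 there, with 12 at an unadjusted p under 0.05. The other lists had medians between -0.36, for the 7 biogenesis regulators in memory against naive wild-type cells, and 0.30, for the 22 RNA processing genes in Dock2-deficient against wild-type memory cells. On the scale of the nuclear genes without Rn18s-rs5 the median of all genes in Dock2-deficient against wild-type memory cells was -0.27, and the lists were not fitted on that scale. Tfam, which packages mitochondrial DNA and starts its transcription, had log2 fold changes from -0.16 to 0.39, and Polrmt, the mitochondrial RNA polymerase, from -0.37 to 0.06 in the 4 comparisons of groups. Lrpprc, which stabilises mitochondrial mRNAs, had -0.73 ± 0.34 for Dock2-deficient against wild-type naive cells and 0.03 ± 0.34 for the same genotypes of memory cells (adjusted p = 0.804 and 0.969). Mtpap, the mitochondrial poly(A) polymerase, had 0.42 ± 0.35 for Dock2-deficient against wild-type memory cells (adjusted p = 0.540). Lars2, the mitochondrial leucyl-tRNA synthetase, had 3703 to 14546 normalized counts, and its fold changes lay between 0.09 and 0.25 with adjusted p-values of at least 0.875.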

How the data were processed

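RNA came from a Qiagen kit and cDNA from Smartseq2, per the labels' protocols; that method covers transcripts over their length and records no strand. RSEM, FastQC, bcl2fastq and the build mm10 are named, per the submitters' processing notes; for aligner, annotation and versions, nothing was given in the sources used here. Values are deposited as a normalized signal: the authors scaled RSEM expected counts between libraries, as the grid of the values shows, 1 read being worth 0.512 to 1.81. RSEM shares reads of near-identical sequences out as estimates. Every column belonged to a library of the series.

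The test was limma 3.58.1 (R 4.3.3) on log2(value + 1), with a variance trend, over genes that reached 10 in 4 or more libraries. All 18 libraries entered the same model, with a coefficient for each group. Two-sided p-values were adjusted by Benjamini-Hochberg over all genes kept (threshold 0.05). Fold changes of low genes are understated on the log2(value + 1) scale. The fit was tested on simulated data. Tables and plots were made in Python 3.11.15 (numpy 2.4.6, pandas 2.3.3, matplotlib 3.10.9). Nuclear copies were found by BLAST 2.17.0 among GENCODE M21 transcripts (at least 95% identity over at least 100 bases), in which 98.9% of the identifiers were found. Levels per kb divide by gene length.

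All mt- genes are members, and values in every library are given for those the results turn on. Of the nuclear lists, genes past the threshold (there were none) and Tfam, Polrmt, Lrpprc, Mtpap and Lars2 are named. The members and lists were chosen with earlier results of these data known. No pair of libraries of a group agreed within sampling noise (chi-square per degree of freedom 4.69 to 168; Pearson correlation of log2 values 0.786 to 0.923). Alternatives changed the pseudocount, filter, scaling, libraries, weights, variance trend, replicate block and the summing of copies.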

Additional observations from a re-analysis of the deposited data

Results flagged for a closer look

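In 129 groups of values (each member, copy, sum of both and 2 shares or ratios that reached 10 in a library, in each group) the highest or lowest library was compared with the others, and 2 stood out. Chance marks about 1 group in 20. Both concern the deposited row of mt-Co3. Dock2-deficient memory library 5 had 513.5, far from the 0.0596 to 0.580 of the other 4 libraries. Wild-type naive library 4 had 548.2, far from the 0.279 to 0.633 of the other 3. With the copy Gm28437 added, mt-Co3 had 5615 in the first of these libraries, beside 2426 to 7847 in its group, and 4096 in the second, beside 2012 to 5605.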

How the results depend on the processing

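Apart from leaving out libraries, the alternatives gave 64 counts of called members, and 63 were the same. Without a filter 1 member, mt-Nd4l, was called for memory against naive in wild type (adjusted p = 0.0251). Its deposited row was at 0 in 15 libraries, and with its copy summed the log2 fold change was 0.30 ± 0.28 (adjusted p = 0.766). Of 896 fold changes of single members under these settings, 39 changed sign and 0 passed the test. When each library was left out in turn, the counts ranged from 0 to 2 as deposited and from 0 to 1 with copies summed, for memory against naive in Dock2-deficient cells, and were 0 in the other comparisons. The calls came without Dock2-deficient memory library 4: mt-Nd2 and mt-Atp6 as deposited, mt-Nd2 with copies summed. In the same 54 counts and 756 fold changes, 47 fold changes changed sign without a call. Without the Dock2-deficient libraries 4 and 5, an alternative chosen after seeing the data, 0 members were called and the median over the 15 genes was 0.77 for memory against naive in Dock2-deficient cells and 0.54 for Dock2-deficient against wild-type memory cells. The labels do not say whether replicate numbers pair the libraries. Correlations of same-numbered libraries were -0.253 to 0.303, and 3 of 9 pairs correlated best with their own number. In Dock2-deficient cells, library 1 of each state had the high Xist, and libraries 4 and 5 of each state the low stress genes. Whether same-numbered libraries share an animal is thus not settled. With a replicate block 0 members were called in each comparison. Without Rn18s-rs5 in the denominator, the mitochondrial share was 11.34% in Dock2-deficient memory, 11.13% in Dock2-deficient naive, 14.18% in wild-type memory and 13.13% in wild-type naive libraries. Without the rRNA genes it was 1.331%, 0.945%, 1.162% and 1.19% in the same groups, both shares counting the rows as deposited. The cause was not tested. The interaction was not run with only the libraries compared. Groups of 4 or 5 libraries with standard errors near 0.3 limit what could be called, and most tRNA values lie at the limit that a count of 0 allows.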
